A study of Mus musculus with 9 samples.

Results

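The genes described here carry glucose to lactate and pyruvate. They are 33 genes of glucose uptake, glycolysis, lactate production and export, and pyruvate entry into mitochondria, named in a list and measured in mouse retina on Affymetrix whole-genome expression arrays. A gene was represented by its brightest probe set, the one with the highest mean over all arrays among probe sets annotated to a single gene symbol. Of the 33 genes, 29 had such a probe set, and all 29 passed the filter on dim genes, so they stood among 12765 genes tested out of 18193 with a probe set of this kind. Gpi1, Gapdh, Eno1 and Mpc2 were not tested, because they had no single-symbol probe set outside the array's control probe sets. Gapdh is described from its control probe sets.

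Albino BALB/c female mice (Babl/c in the labels) aged 10 weeks were kept for 14 days in 1 of 3 environments: a relatively dark environment (control), or white LED light whose colour temperature was 2954K (warmer white) or 7378K (bluer white). The light cycle was 12 h on and 12 h off, and the LED light had an illuminance of 1000 lx. The labels give no illuminance for the controls, and no transgene or mutation is named for any group. There were 3 arrays per group, 9 in all, and 1 array held RNA from a pool of 3 right-eye neurosensory retinas. Arrays are called by their group and replicate number, and values are log2 signals unless a fold is named.

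The retina is known for aerobic glycolysis: photoreceptors turn much of their glucose into lactate even when oxygen is present. Glucose enters through GLUT transporters, is trapped by hexokinase, committed by phosphofructokinase and split and oxidised to pyruvate. Lactate dehydrogenase then makes lactate, which leaves through monocarboxylate transporters held at the membrane by basigin, whereas the mitochondrial pyruvate carrier and pyruvate dehydrogenase send pyruvate to the citric acid cycle.

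The retinal identity of the pools was seen in rod markers, with a mean over 10 rod genes of 13.44 to 13.91 on the 9 arrays. RNA from neighbouring tissue was present too, since lens genes averaged 12.43 in control 3, 9.79 in 2954K 3 and 7.50 in 7378K 3 against 3.46 to 5.81 elsewhere. The arrays also differed in how evenly transcripts were covered. The mean 3' minus 5' difference of the Gapdh and beta-actin control probe sets, which is larger where the 5' parts of transcripts give less signal, was 0.20 to 0.42 in the controls and 1.55 to 1.80 in the 7378K arrays. In the 2954K arrays it was 2.78, 0.21 and 1.05 for replicates 1 to 3, so 2954K 2 lay within the control range and 2954K 1 above every other array.

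Gapdh, the glyceraldehyde 3-phosphate dehydrogenase of glycolysis, shows this directly. Its 5' control probe set measured 14.42, 14.75 and 14.69 in the controls, 12.36, 14.44 and 14.20 under 2954K light and 13.28, 13.57 and 13.41 under 7378K light. Its 3' control probe set measured 14.19, 14.39 and 14.52 in the controls, 14.57, 14.14 and 14.49 under 2954K light and 14.48, 14.53 and 14.24 under 7378K light. The 7378K arrays thus lay below all controls at the 5' part and overlapped them at the 3' part. The 3' minus 5' difference of Gapdh was -0.25 ± 0.10 in control and 0.99 ± 0.19 under 7378K light (SD, n = 3; exact two-sided permutation p = 0.1, the smallest that 3 against 3 arrays allow, and 0.3 after Benjamini-Hochberg adjustment over 9 tests). Under 2954K light it was 0.74 ± 1.31 (exact p = 0.3, adjusted 0.45).

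**Figure D1:**
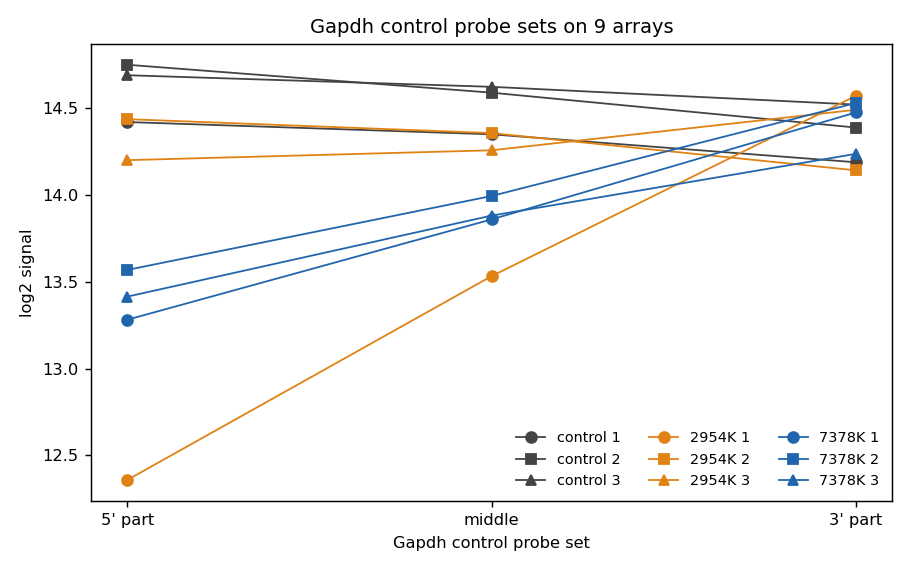
Log2 signal (vertical axis) of the 5', middle and 3' Gapdh control probe sets (horizontal axis) on each of the 9 arrays, 1 line per array, coloured by group. The control lines and 2954K 2 fall slightly from 5' to 3', the 7378K lines rise by 0.82 to 1.20, and 2954K 1 rises by 2.21.

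Under 7378K light, 2 of the 29 genes passed the test against control, and both encode hexokinases. Hk1, the hexokinase found in most tissues, rose 1.60-fold on its brightest probe set, and Hk2, the isoform typical of photoreceptors in the retina, fell 1.34-fold. The other 27 did not pass, and in limma with Benjamini-Hochberg adjustment over all genes 3.52% of the 12765 genes were called in this comparison (301 risen and 148 fallen), against 6.9% of the 29. The median difference of the 29 genes was -0.03, and 16 of them lay below control. Over all genes tested the median was 0.04, with 44.0% below control. With arrays centred on their medians the 29 genes had a median of 0.05 and all genes one of 0.12, and only Hk1 of the 29 was called. At an unadjusted p under 0.05 there were 10 of the 29 genes, beside 22.6% of all genes.

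Under 2954K light, 0 of the 29 genes passed (limma, adjusted over all genes), where 1.22% of all genes did; 7 of the 29 had an unadjusted p under 0.05, as did 13.1% of all genes. The median difference was -0.13, and 19 of 29 genes lay below control, beside a median of 0.01 and 48.2% below control over all genes. Between 7378K and 2954K light, 0 of the 29 and 0 of the 12765 genes passed in limma (0.0%). There were 0 of the 29 and 519 of all genes (4.07%) at an unadjusted p under 0.05, and 16 of the 29 lay lower under 7378K light, as did 43.6% of all genes. Both LED groups were compared with the same 3 control arrays, so their differences from control are not independent of each other.

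**Figure D2:**
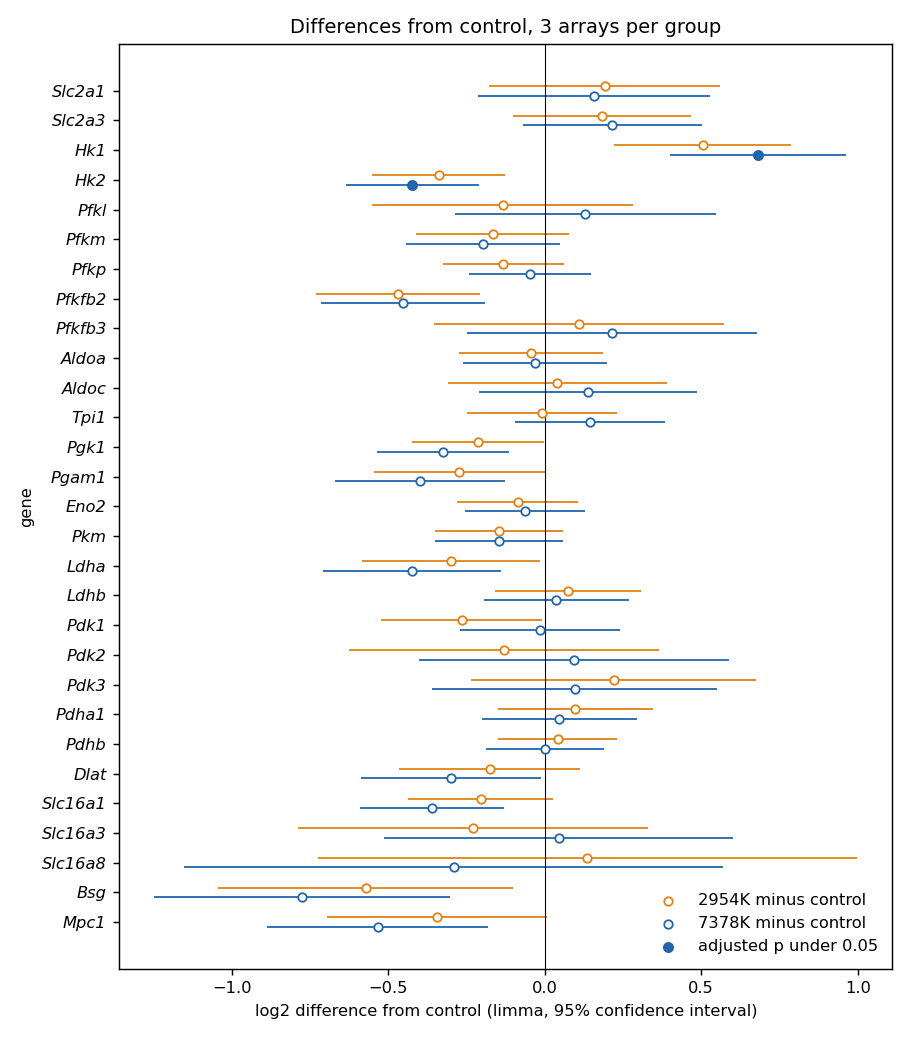
Log2 difference from control (horizontal axis) for each of the 29 genes (vertical axis, in pathway order) under 2954K and 7378K light, with 95% confidence intervals from limma and 3 arrays per group. Filled points have an adjusted p under 0.05: Hk1 at 0.68 and Hk2 at -0.42, both under 7378K light.

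The hexokinase genes were the only members called. Hk1 measured 13.04, 12.90 and 12.99 in controls 1 to 3, 13.77, 13.21 and 13.46 under 2954K light and 13.67, 13.75 and 13.56 under 7378K light. All 6 LED arrays lay above all 3 controls. The difference was 0.68 ± 0.13 (SE) under 7378K light (adjusted p = 0.0145) and 0.50 ± 0.13 under 2954K light (adjusted p = 0.103), and between the LED groups it was 0.18 (95% confidence interval -0.11 to 0.46).

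Hk2 measured 12.54, 12.52 and 12.74 in the controls, 12.34, 12.33 and 12.11 under 2954K light and 12.19, 12.16 and 12.17 under 7378K light. Every LED array lay below every control, and the 7378K arrays differed from each other by less than 0.03. The difference was -0.42 ± 0.10 (SE) under 7378K light (adjusted p = 0.0361) and -0.34 ± 0.10 under 2954K light (adjusted p = 0.151). Hk2 had a single probe set.

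The promoter windows of both genes are shown because these were the members called. In that test the brightest Hk1 probe set rose and Hk2 fell, but another Hk1 probe set, described below, also lay lower. That of Ldha is shown because its window holds the most copies of the motif searched. They are the 250 bases before the annotated start, 5' to 3' on the gene's strand, from RefSeq on build GRCm38.p6. Capitals mark ACGTG or its reverse complement CACGT, the core letters of the hypoxia response element, which also lie inside the E-box CACGTG; copies may overlap. Hk1 has 2 annotated starts, at chr10:62379909-62380158 and chr10:62340422-62340671 on the minus strand, Hk2 has 1 at chr6:82774455-82774704 on the minus strand, and the first of 2 Ldha windows is chr7:46845554-46845803 on the plus strand.
Hk1, first start: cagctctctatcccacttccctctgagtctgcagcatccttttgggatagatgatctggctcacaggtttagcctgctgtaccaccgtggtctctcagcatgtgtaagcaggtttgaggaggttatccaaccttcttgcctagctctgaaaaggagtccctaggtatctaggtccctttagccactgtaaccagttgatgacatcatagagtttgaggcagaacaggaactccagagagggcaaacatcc
Hk1, second start: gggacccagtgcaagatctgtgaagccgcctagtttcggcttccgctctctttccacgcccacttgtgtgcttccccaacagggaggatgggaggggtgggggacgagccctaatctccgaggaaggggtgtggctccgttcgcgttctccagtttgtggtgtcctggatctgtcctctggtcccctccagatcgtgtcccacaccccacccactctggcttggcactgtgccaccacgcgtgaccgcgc
Hk2: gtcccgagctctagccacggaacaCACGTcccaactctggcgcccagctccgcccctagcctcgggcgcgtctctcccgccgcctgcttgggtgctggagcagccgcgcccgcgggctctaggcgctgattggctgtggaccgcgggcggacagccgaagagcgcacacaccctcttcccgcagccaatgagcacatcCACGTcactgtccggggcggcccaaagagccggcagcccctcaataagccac
Ldha: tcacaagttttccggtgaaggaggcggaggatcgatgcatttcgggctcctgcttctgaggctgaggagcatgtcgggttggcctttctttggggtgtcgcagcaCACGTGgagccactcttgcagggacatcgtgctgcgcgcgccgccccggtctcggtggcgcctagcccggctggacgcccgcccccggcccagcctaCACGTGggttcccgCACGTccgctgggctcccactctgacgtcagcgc
The Hk2 window holds CACGT at 226 and 52 bases before the start, and neither Hk1 window holds a match. The Ldha window holds 3 separate stretches, and its other window holds none. Promoter windows were found for 31 of the 33 genes, and 15 of these 31 genes (48.4%) had a match in at least 1 window, beside 18.5% of 27025 genes; by window it was 39.6% of 48 beside 16.6% of 32851. A match is a run of letters and shows no binding.

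The second Hk1 probe set went the other way. It measured 10.49, 10.87 and 10.16 in the controls, 7.19, 10.74 and 9.09 under 2954K light and 8.80, 8.43 and 8.76 under 7378K light. The 7378K arrays all lay below the controls, whereas 2954K 2 lay between them. With every probe set tested by itself (22657 probe sets, of which 2.51% were called under 7378K light), the difference was -1.85 ± 0.65 (SE, adjusted p = 0.124), against 0.68 (adjusted p = 0.0259) for the brightest probe set. Both Hk1 probe sets carry the suffix by which the manufacturer marks probe sets shared by several transcripts of a gene; which part of the gene each covers was not analysed here.

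Among the 9 arrays, the lowest signal of the second Hk1 probe set and the highest of the brightest one both fell on 2954K 1, the array with the largest 3' minus 5' difference. In a fit of each probe set by itself with that difference as a covariate, the slope per unit was -1.33 for the second probe set (adjusted p = 7.8e-05) and 0.22 for the brightest one (adjusted p = 0.0132), and the 7378K differences became -0.04 (adjusted p = 0.984) and 0.39 (adjusted p = 0.132). Hk2 had a slope of 0.03 (adjusted p = 0.803) and a 7378K difference of -0.47 with the covariate, which no longer passed (adjusted p = 0.139). In that fit the slope comes from differences between arrays of the same group, and the 2954K arrays span most of them. In 2954K 2, whose 3' minus 5' difference lay within the control range, Hk1 exceeded the control mean by 0.23. Hk2 measured 0.27 less there (a difference of -0.27), and both lay outside the range of the controls. On that single array 24.2% of all genes tested lay above the control range and 29.2% below it, so such a position is common.

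In the gene test, the Hk1 call ended without control 2 (adjusted p = 0.0871), without 7378K 1 (0.0775) and without 7378K 2 (0.0761), and its direction turned with the mean of both probe sets (-0.58, adjusted p = 0.269); over 20 alternatives its adjusted p ran from 0.00032 to 0.469. The Hk2 call ended without any 1 of the 6 control and 7378K arrays (adjusted p = 0.0892 to 0.136), with a range of 0.00425 to 0.213 over 20 alternatives.

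**Figure D3:**
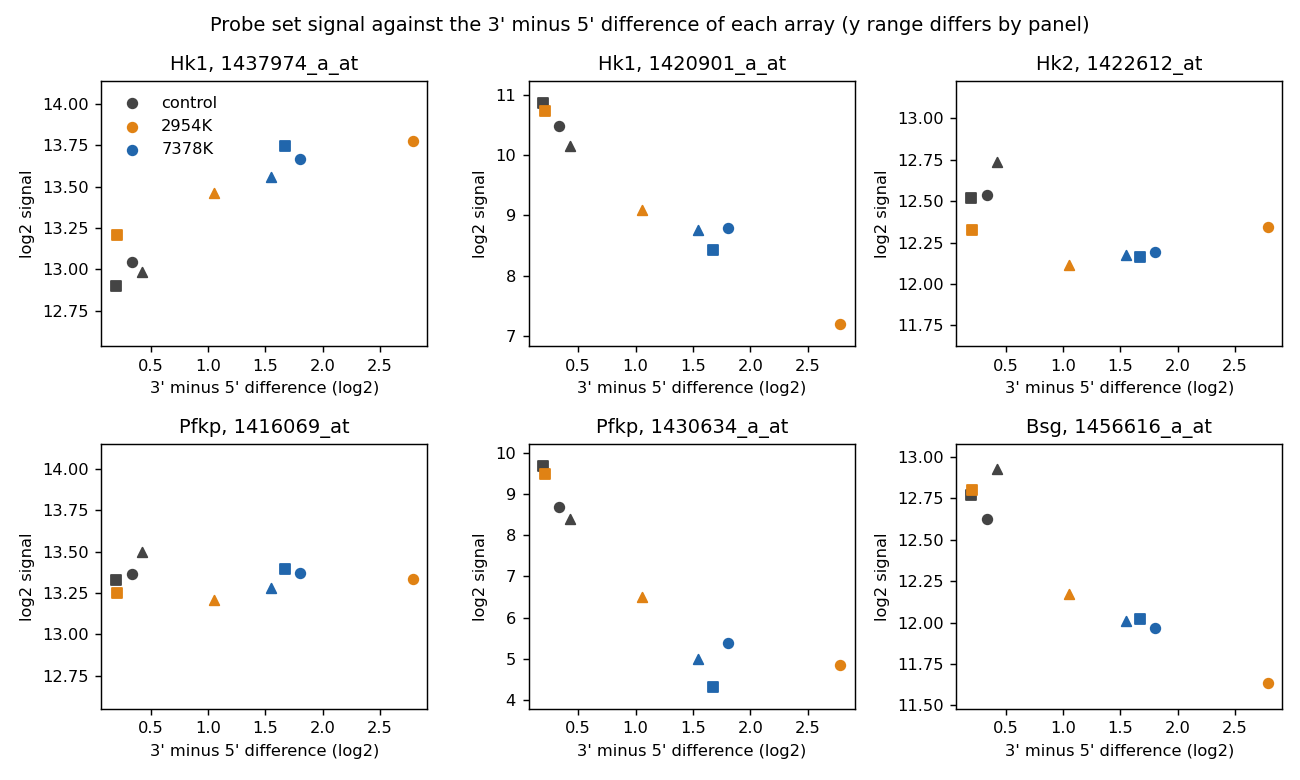
Log2 signal (vertical axis, different range in each panel) of 6 probe sets of Hk1, Hk2, Pfkp and Bsg against the 3' minus 5' difference of the array (horizontal axis, log2), 1 point per array, coloured by group, with circle, square and triangle for replicates 1 to 3. The dimmer probe sets shown for Hk1 and Pfkp and that of Bsg are lowest on arrays with a large difference, and 2954K 2 lies among or near the controls for them.

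Glucose transporters did not pass the test. Slc2a1, which encodes GLUT1, the main glucose transporter of retina, pigment epithelium and blood-retinal barrier, measured 12.47, 12.31 and 12.88 in the controls, 12.91, 12.40 and 12.92 under 2954K light and 12.84, 12.53 and 12.77 under 7378K light. The groups overlapped, with a difference of 0.16 (95% confidence interval -0.21 to 0.53) under 7378K light. Slc2a3, the neuronal transporter GLUT3, differed by 0.18 under 2954K and 0.22 under 7378K light (adjusted p = 0.571 and 0.352).

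At the phosphofructokinase step, the 3 subunit genes Pfkl, Pfkm and Pfkp differed from control by -0.20 to 0.13 across both LED groups on their brightest probe sets, with adjusted p of 0.324 to 0.804. For Pfkl, the liver-type subunit, the other 2 probe sets gave -0.57 and -0.55 under 2954K light (adjusted p = 0.207 and 0.235) and -0.38 and -0.47 under 7378K light (adjusted p = 0.186 and 0.121), against -0.13 and 0.13 on the brightest. The brightest one had a slope of 0.36 on the 3' minus 5' difference (adjusted p = 0.00477), and with that covariate its differences were -0.51 and -0.36 (adjusted p = 0.0898 and 0.327). Pfkm, the muscle-type subunit, was highest in control 3 (11.08), the array in which 8 striated muscle markers averaged 8.48 against 5.47 to 6.20 on the other arrays. What part this had in the Pfkm values was not tested.

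Pfkfb2 encodes an enzyme that makes and breaks fructose 2,6-bisphosphate, the activator of phosphofructokinase, and is a form abundant in photoreceptors. It measured 12.55, 12.67 and 12.27 in the controls, 11.93, 12.21 and 11.94 under 2954K light and 11.95, 12.09 and 12.09 under 7378K light. All LED arrays lay below all controls, yet the test was not passed, with -0.47 ± 0.12 (SE, adjusted p = 0.104) and -0.45 ± 0.12 (adjusted p = 0.0604). The adjusted p was 0.0355 and 0.0279 without control 3, but 0.429 and 0.244 without control 2. With the Gapdh and beta-actin covariate the 7378K difference was -0.31 (adjusted p = 0.471), and with that of dap, a spiked-in control RNA, it was -0.15 (adjusted p = 0.801). Pfkfb3, the form induced by low oxygen and inflammatory signals, measured 9.10, 8.43 and 8.80 in the controls, 9.08, 8.50 and 9.09 under 2954K light and 9.13, 8.74 and 9.12 under 7378K light, and its groups overlapped (adjusted p = 0.864 and 0.583).

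From aldolase to pyruvate kinase, 0 of 7 genes passed in limma, and under 7378K light 2 of the 7, Pgk1 and Pgam1, had an unadjusted p under 0.05. On their brightest probe sets Pgk1 and Pgam1, the kinase and mutase of the phosphoglycerate steps, lay below all controls in all 6 LED arrays. Pgk1 had a mean of 13.85 ± 0.10 in control, 13.64 ± 0.09 with 2954K and 13.52 ± 0.10 with 7378K light (SD, n = 3; adjusted p = 0.381 and 0.0848). Pgam1 measured 13.67 ± 0.07, 13.40 ± 0.22 and 13.27 ± 0.18 (adjusted p = 0.383 and 0.0955), and with the covariate its 7378K difference went from -0.40 to -0.20 (adjusted p = 0.695). A Pgk1 probe set nearly as bright went the other way: it measured 13.54, 13.51 and 13.61 in the controls, 13.96, 13.52 and 13.61 under 2954K light and 13.67, 13.69 and 13.68 under 7378K light. There the 7378K arrays lay above all controls, by 0.12 (adjusted p = 0.543), and the third Pgk1 probe set had a difference of -0.14. The mean of all Pgk1 probe sets gave -0.11 (adjusted p = 0.49) against -0.32. The nearly as bright probe set had a slope of 0.18 on the 3' minus 5' difference (limma, adjusted p = 0.0192). With the covariate its 7378K difference was -0.115 (adjusted p = 0.741). That of the brightest was then -0.26 (adjusted p = 0.469) and that of the third 0.05 (adjusted p = 0.973).

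Aldolase A (Aldoa) and triose phosphate isomerase (Tpi1) had 7378K differences of -0.03 and 0.14 on their brightest probe sets. Over 5 Aldoa probe sets the 7378K differences ran from -0.39 to 0.09, the lowest without overlap with control (95% confidence interval -0.66 to -0.13, adjusted p = 0.0948). A further Tpi1 probe set lay above all controls on all 6 LED arrays, by 0.17 under 2954K and 0.16 under 7378K light (adjusted p = 0.405 and 0.229). Aldoc, the brain-type aldolase, measured 13.55, 13.69 and 14.08 in the controls, 14.08, 13.51 and 13.85 under 2954K light and 14.02, 13.94 and 13.78 under 7378K light, with overlapping groups. Eno2, the neuronal enolase, measured 13.12, 13.15 and 13.25 in the controls, 13.03, 13.11 and 13.12 under 2954K light and 13.15, 13.18 and 13.01 under 7378K light. Pkm, the pyruvate kinase gene, measured 13.54, 13.56 and 13.67 in the controls, 13.51, 13.39 and 13.45 under 2954K light and 13.46, 13.56 and 13.32 under 7378K light. For Eno2 and Pkm the 2954K arrays lay just below the controls, by a mean of -0.09 and -0.15, and the 95% confidence intervals of the LED differences from control of Aldoc, Eno2 and Pkm on these probe sets held 0.

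Neither lactate dehydrogenase subunit passed the test. Ldha, the subunit that favours lactate production, measured 13.80, 13.89 and 13.93 in the controls, 13.32, 13.64 and 13.75 under 2954K light and 13.48, 13.63 and 13.22 under 7378K light. Every LED array lay below every control, with differences of -0.30 ± 0.13 (SE, adjusted p = 0.359) and -0.42 ± 0.13 (adjusted p = 0.0913). Adjusted for the 3' minus 5' difference, the 7378K value was -0.25 (adjusted p = 0.643). Ldhb, the subunit that favours lactate use, measured 12.19, 12.17 and 12.26 in the controls, 12.38, 12.04 and 12.41 under 2954K light and 12.17, 12.29 and 12.26 under 7378K light, and the groups overlapped on this brightest probe set. On a further Ldhb probe set the 7378K arrays lay above all controls, by 0.59 (limma, each probe set by itself, adjusted p = 0.109). With the covariate that difference was 0.16 (adjusted p = 0.83). The remaining Ldhb probe sets differed by 0.15 and -0.07. The difference between the changes of the subunits was not tested.

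The export step held the member with the largest difference. Bsg, basigin, the chaperone of lactate transporters and the receptor of a rod-derived cone survival factor, measured 12.63, 12.77 and 12.93 in the controls, 11.63, 12.80 and 12.18 under 2954K light and 11.97, 12.02 and 12.01 under 7378K light. The 7378K arrays lay close together below all controls, at -0.78 ± 0.22 (SE, adjusted p = 0.0715), whereas 2954K 2 lay within the control range and 2954K 1 was the lowest of all. The signal moved with the 3' minus 5' difference, with a slope of -0.42 per unit (adjusted p = 0.00238), and with that covariate the 7378K difference was -0.20 (adjusted p = 0.71).

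Slc16a1, which encodes the lactate transporter MCT1, measured 13.36, 13.42 and 13.53 in the controls, 13.37, 13.22 and 13.11 under 2954K light and 12.96, 13.03 and 13.24 under 7378K light. The 7378K arrays lay below all controls, at -0.36 ± 0.11 (SE, adjusted p = 0.0825), and with the covariate the difference was -0.44 (adjusted p = 0.189). Slc16a3, the transporter MCT4, was dim, at 6.79 to 7.66, with overlapping groups.

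Slc16a8 encodes MCT3, a lactate transporter typical of the pigment epithelium. It measured 8.61, 8.45 and 9.40 in the controls, 9.14, 9.55 and 8.16 under 2954K light and 8.30, 7.97 and 9.31 under 7378K light, and the groups overlapped. The 4 arrays with the highest Slc16a8 were also the 4 with the highest Rpe65, a defining pigment epithelium gene: control 3 (11.67), 2954K 1 (11.23), 2954K 2 (11.83) and 7378K 3 (11.34), against 9.73 to 10.34 on the others. The mean over 10 pigment epithelium and melanocyte markers ran from 8.28 to 10.39 in control, 9.29 to 10.22 with 2954K and 8.48 to 9.80 with 7378K light, and 0 of the 9 tested passed in either comparison with control. By array the list mean did not follow Slc16a8 as Rpe65 did. It was 10.22 in 2954K 3, where Slc16a8 measured 8.16, and 9.29 in 2954K 2, where Slc16a8 measured 9.55. The part of such tissue in the Slc16a8 values was not tested.

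At the entry of pyruvate into mitochondria, Mpc1, a subunit of the pyruvate carrier, had a mean of 11.63 ± 0.04 in control, 11.28 ± 0.39 with 2954K and 11.09 ± 0.14 with 7378K light (SD, n = 3; adjusted p = 0.395 and 0.0875). Its slope on the 3' minus 5' difference was -0.30 (adjusted p = 0.00569), and 2954K 2 (11.67) lay within the control range. The pyruvate dehydrogenase genes Pdha1, Pdhb and Dlat differed by -0.30 to 0.05 under 7378K light and -0.18 to 0.10 under 2954K light, none past the test.

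Of the kinases that switch pyruvate dehydrogenase off, Pdk1 measured 10.36, 10.26 and 10.22 in the controls, 10.09, 10.17 and 9.78 under 2954K light and 10.29, 10.23 and 10.27 under 7378K light. It was lower in all 2954K arrays than in any control or 7378K array, and was the 1 member whose LED groups did not overlap, where 8.55% of all genes did not (5.27% higher and 3.28% lower under 7378K light). The difference between the LED groups was 0.25 (95% confidence interval -0.01 to 0.51, adjusted p = 0.978). Other Pdk1 probe sets above the filter were dimmer, with means of 6.32 to 7.87. On them the LED groups differed by -0.03, -0.44 and 0.80 (limma, each probe set by itself, adjusted p = 0.937 to 0.991). Pdk2 and Pdk3 had overlapping groups in each comparison.

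Counted over the members, 10 of 29 did not overlap between 7378K and control (1 higher and 9 lower), where 36.4% of all genes did not overlap, 21.6% being higher and 14.8% lower. Besides Hk2 the lower ones were Pfkfb2, Pgk1, Pgam1, Ldha, Dlat, Slc16a1, Bsg and Mpc1. Between 2954K and control 9 of 29 did not overlap (1 higher and 8 lower), beside 15.2% of all genes (7.68% higher and 7.53% lower). In 2954K 2, 15 of the 29 genes lay below the control range (51.7%), where 29.2% of all genes did. Of the 9 that were lower without overlap under 7378K light, 6 lay below it and Dlat, Bsg and Mpc1 lay inside it. The same controls chose these 9 and set the range, and the share among all genes chosen this way was not counted.

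**Figure D4:**
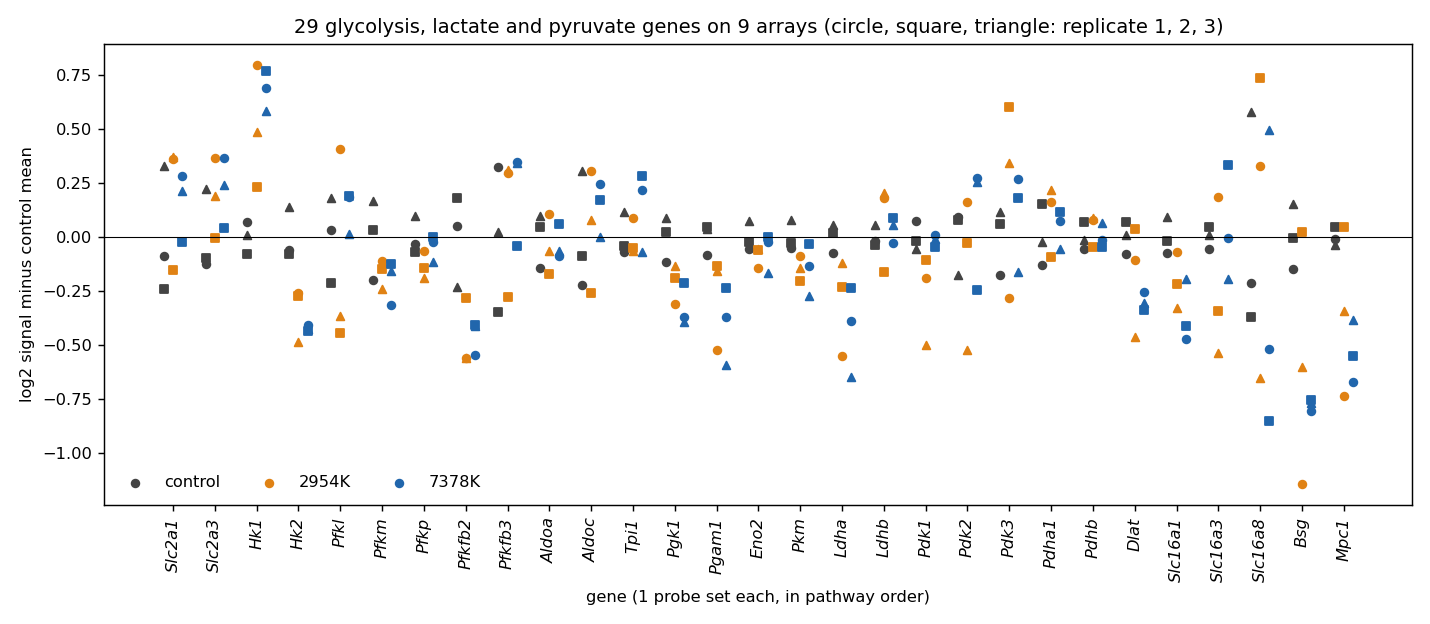
Log2 signal minus the control mean (vertical axis) of each of the 29 genes (horizontal axis, in pathway order) on each array, coloured by group, with circle, square and triangle for replicates 1 to 3. Hk1 stands above control on all 6 LED arrays and Hk2, Pfkfb2, Pgk1, Pgam1 and Ldha below it.

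The number of members called moved with the arrays in the fit. With the 2954K arrays left out of the fit, 10 of 29 members (1 risen, Hk1, and 9 fallen) and 2174 of 12765 genes were called under 7378K light. Leaving out 2954K 1 alone gave 9 members and 1517 genes, and leaving out 2954K 2 gave 7 and 1211. Without 2954K 2 the count under 2954K light was 5 members (Hk1, Hk2, Pfkfb2, Bsg and Mpc1) and 895 genes. Adjusted for the 3' minus 5' difference, 0 members were called in limma in any comparison, and the same held with that of beta-actin alone or of dap.

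Probe sets of the same gene also differed for members besides Hk1. Of 15 members with more than 1 probe set above the filter, Hk1 included, 9 had probe sets on both sides of 0 under 7378K light. For 4, Hk1 included, the probe sets differed by over 1 on the log2 scale. Those of Pfkp and Pfkfb2 all lay below 0. The matching shares over all genes with several probe sets were not counted. Pfkp, the platelet-type phosphofructokinase, was level on its brightest probe set (-0.05 ± 0.09 SE), but a further probe set measured 8.69, 9.69 and 8.41 in the controls, 4.85, 9.48 and 6.50 under 2954K light and 5.39, 4.32 and 5.01 under 7378K light. That difference was -4.02 ± 0.91 (adjusted p = 0.0463), the third of 3 member probe sets called beside those of Hk1 and Hk2, and the 7378K mean of 4.91 lay below the filter value of 5.91, so its size is uncertain. Its slope on the 3' minus 5' difference was -1.68 (adjusted p = 0.00557), its difference with the covariate was -1.75 (adjusted p = 0.359), and the call was kept in 2 of 9 fits that left out 1 array, those without 2954K 1 and without 2954K 2.

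Pdha1, the alpha subunit of pyruvate dehydrogenase, differed by 0.05 on its brightest probe set and by -1.49 ± 0.43 (SE, adjusted p = 0.0836) on its other one. That other probe set had a slope of -0.73 on the 3' minus 5' difference (limma, adjusted p = 0.0206). With the covariate its 7378K difference was -0.50 (limma, adjusted p = 0.726). Pfkfb2 was below control on all 4 probe sets under 7378K light, from -1.79 to -0.28. Its differences of -1.79 and -1.77 came from probe sets with 7378K means of 6.12 and 5.51. These lie near the filter value of 5.91, so the size of those differences is uncertain. Ldhb ran from -0.07 to 0.59 over 4 probe sets. Over the 59 member probe sets tested, 11 (18.6%) had a slope on the 3' minus 5' difference past the adjusted threshold, 7 negative and 4 positive, beside 11.1% of all 22657 probe sets, and 0 were called for LED light with the covariate in limma. Under 2954K light 0 of the 59 were called without it, beside 0.64% of all probe sets.

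**Figure D5:**
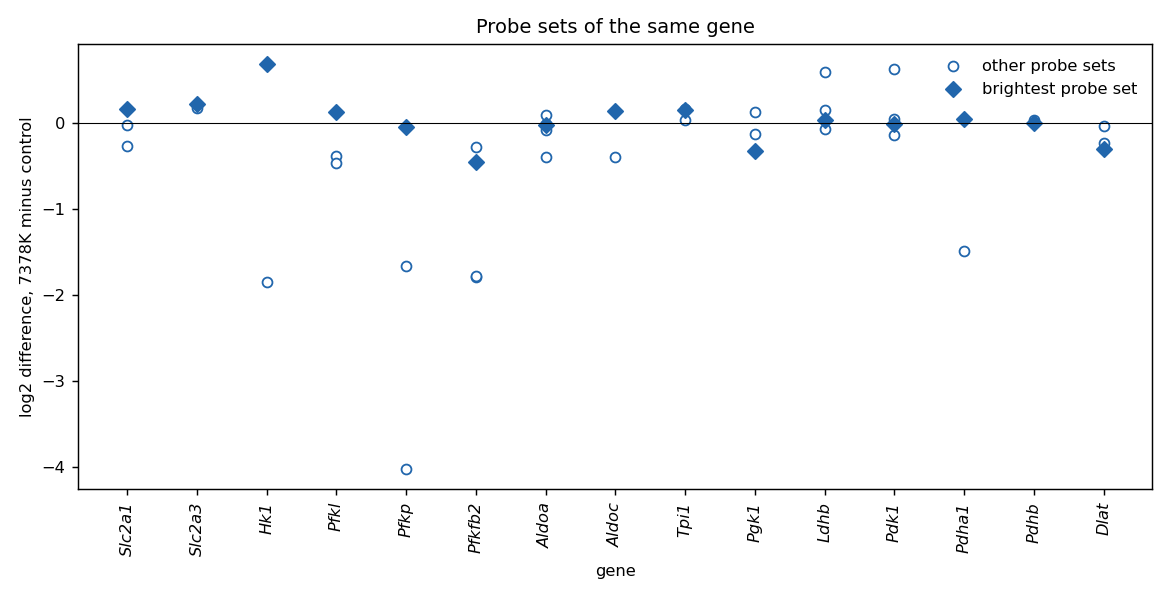
Log2 difference between 7378K and control (vertical axis) for each probe set above the filter of the 15 genes with several (horizontal axis). Diamonds are the brightest probe set of a gene and open circles the others; Hk1, Pfkp, Pfkfb2 and Pdha1 have a probe set more than 1 below their brightest.

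Genes around the pathway were read from 9 lists. Pentose phosphate, glycogen, gluconeogenesis, citric acid cycle and regulator genes had 0 of 6, 0 of 10, 0 of 4, 0 of 15 and 0 of 16 called by limma in each comparison, with 7378K medians of 0.04, -0.11, -0.08, -0.00 and 0.19. The smallest unadjusted p of each fell on Pgd, Pgm1, Slc37a4, Idh3a and Arnt, none past the adjusted threshold (0.136 to 0.62 for 7378K). Among 18 other genes of glycolysis and pyruvate handling 1 rose under 7378K light, Hkdc1, a hexokinase relative whose gene is the direct neighbour of Hk1.

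Hkdc1 measured 8.57, 8.73 and 8.66 in the controls, 8.93, 9.50 and 9.34 under 2954K light and 9.49, 9.50 and 9.41 under 7378K light. All LED arrays lay above all controls. It rose by 0.81 under 7378K light (adjusted p = 0.0131), and the difference under 2954K light was 0.60 (adjusted p = 0.10). Adjusted for the 3' minus 5' difference both passed, at 1.11 (adjusted p = 0.00328) and 0.83 (adjusted p = 0.0147). The 7378K call ended without control 1, 7378K 1, 7378K 2 or 7378K 3 (adjusted p = 0.0544 to 0.0748) and with the mean of its probe sets (0.588), within a range of 0.0015 to 0.588 over 20 alternatives. With that mean the 2954K difference turned to -0.53 (adjusted p = 0.752).

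Under 7378K light 1 gene fell in each of 3 further lists, and 0 rose. Ddit4, an inhibitor of mTORC1 signalling induced by stress and low oxygen, was the 1 of 9 genes in the list of hypoxia targets outside glycolysis, from 12.23 ± 0.05 to 11.73 ± 0.09 (SD, n = 3; adjusted p = 0.0131). Slc25a11, the oxoglutarate carrier of the malate-aspartate shuttle, was 1 of 7 shuttle genes, from 11.11 ± 0.11 to 10.30 ± 0.10 (adjusted p = 0.041), with -0.29 and an adjusted p of 0.367 under the covariate. Nxnl2, which encodes a rod-derived cone viability factor, fell by 0.39 (adjusted p = 0.0494), and its relative Nxnl1 differed by -0.17 (adjusted p = 0.401). With the covariate Ddit4 had a difference of -0.39 against -0.50 (adjusted p = 0.126) and Nxnl2 kept its difference of -0.39 with a larger p (adjusted p = 0.206). Leaving out 1 array kept the call in 5 of 9 fits for Ddit4, 2 for Slc25a11 (without 2954K 1 or 2) and 3 for Nxnl2 (without any 1 of the 2954K arrays).

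Markers of cell types that use these pathways moved in the same comparison. Over all 12765 genes, 301 rose and 148 fell under 7378K light, and 132 rose and 24 fell under 2954K light. With the Gapdh and beta-actin covariate, 111 of all genes rose and 25 fell under 7378K light. The marker values here are without that covariate. Of 10 rod genes 4 fell under 7378K light, namely Cnga1, Cngb1, Prph2 and Rom1. The mean over the rod list was 13.74 to 13.91 in control, 13.55 to 13.72 with 2954K and 13.44 to 13.61 with 7378K light. Of 8 microglial genes 6 rose in each LED group, and the mean over 9 such genes was 6.66 to 7.34 in control, 8.58 to 8.75 with 2954K and 8.61 to 8.71 with 7378K light. Of 9 Müller glia genes 1 rose in each, Aqp4, and the list mean was 12.06 to 12.28 in control and 12.33 to 12.48 in the LED arrays. Cone and endothelial lists had 0 of 8 and 0 of 4 genes called, and the cone mean was 10.65 to 10.79 in control, 10.64 to 10.70 with 2954K and 10.51 to 10.57 with 7378K light, the last below all controls. Fewer cells of a type and less RNA per cell cannot be told apart in pooled retinas, and the part of these shifts in the hexokinase, Pfkfb2, Ldha and Bsg values was not tested. The 3' minus 5' difference also differed, at 0.20 to 0.42 in the controls and 1.55 to 1.80 in the 7378K arrays. Its part in the marker values was not tested either.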

How the data were processed

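RNA of 9 pools of retina was amplified and labelled with a 3' IVT reagent kit, per the labels' protocols. The deposited table holds log2 signals for 45101 probe sets; per the submitters' processing notes MAS5 and the package affy were used, with versions and roles not given in the sources used here. Each array had been scaled to a 2% trimmed mean of 500 on the linear scale, a check made on the values, and no further scaling was applied. Signal over background was not recorded, and 3 arrays per group limit the precision.

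Probe sets were named from the platform annotation: 34945 had 1 symbol, 932 several, 9160 none and 64 were controls. Per gene, the brightest single-symbol probe set was kept, and genes whose mean over arrays fell under the 40th percentile of probe sets (5.91) were left out. The 3 group means were fitted over 9 arrays with limma 3.58.1 in R 4.3.3 (eBayes with trend, Benjamini-Hochberg adjustment over 12765 genes, 6 residual degrees of freedom), tested on simulated data. The 3' minus 5' difference was the mean of the Gapdh and beta-actin control probe sets.

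Named genes were members called in any comparison, a panel of 15 members (Gapdh included), and the called or lowest-p genes of 9 related lists. Members and lists were chosen with earlier results of these data known. Alternatives were normalisation, filter, probe set rule, variance model, covariates, replicate block and leaving out arrays; tests of each probe set by itself and the beta-actin covariate were added after seeing the data. The labels call replicates biological, each a pool of 3 retinas.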

Additional observations from a re-analysis of the deposited data

How the results depend on the processing

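Of the single-gene and probe set values recomputed under alternatives, 2217 counted as unchanged, 86 lost and 61 gained a call, and 92 without a call moved. A further 1 called value reversed, that of Hk1 (-0.58 with the mean of its probe sets). Unchanged meant the same call and direction, or for genes uncalled in both fits a shift below the larger group SD. For probe sets uncalled in both fits the same direction was enough. The second Hk1 probe set thus counted as unchanged with the Gapdh and beta-actin covariate, although its 7378K difference went from -1.85 to -0.04. Members called under 7378K light numbered 2 as reported. They numbered 1 without a filter (Hk1), 1 with the mean of probe sets (Hk2) and 1 with median centring (Hk1). There were 0 without an intensity trend, 5 with quantile normalisation and 10 with only both groups compared. Without control 3 and 2954K 3 there was 1, which was Pfkfb2 and neither hexokinase. There were 0 with each of the 3 covariates (Gapdh and beta-actin, dap, beta-actin alone) and 0 to 9 when 1 array was left out. Under 2954K light 1 was called with quantile normalisation and 0 to 5 when 1 array was left out. All genes called under 7378K light numbered 449 as reported, 255 with the mean of probe sets, 207 without a trend, 2174 with only both groups, 136, 71 and 115 with the 3 covariates and 144 to 1517 when 1 array was left out. Under 2954K light they numbered 156 as reported, 82 with the mean of probe sets, 101 without a trend, 68 with only both groups, 102 with the Gapdh and beta-actin covariate, 103 without control 3 and 2954K 3, and 79 to 895 when 1 array was left out. Between LED groups 0 to 29 genes were called when 1 array was left out. Member probe sets called under 7378K light numbered 3 as reported, 0 with the covariate and 0 to 17 when 1 array was left out, and 0 to 13 under 2954K light. Leaving out 2954K arrays left the 7378K differences from control unchanged, as for Hk1 (0.68) and Hk2 (-0.42). Counts under 7378K light in those fits moved through the shared estimate of the spread and its degrees of freedom. The cause of the other shifts was not tested. With replicate numbers as a block, 4 members (Hk1, Hk2, Pfkfb2 and Bsg) and 638 genes were called under 7378K light; same-numbered arrays had correlated deviations of 0.061 to 0.332, and 7 of 9 arrays correlated best with their own number, so the pairing is only a hint from the data.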
